A study of Arabidopsis thaliana with 10 samples.

Results

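AT1G72920 and AT1G72940 are neighbouring protein-coding genes on chromosome 1 of Arabidopsis thaliana, both of the TIR type, and each was measured by 1 probe set. They were chosen by measured values, namely their higher signal in flu than in wild type leaves on these same arrays, and are 2 of 22746 gene probe sets. In the order of the RefSeq table of assembly TAIR10.1 the pair is separated by a single protein-coding gene, TIR (AT1G72930), which was not analysed here.

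Rosette leaves of 5 genotypes were profiled on ATH1 arrays, with 2 arrays per genotype and a pool of 5 mature plants on each. The genotypes were ex1/ex2/flu, ex1/flu, ex2/flu, flu and Columbia wild type. The flu line, which all 3 EXECUTER lines also carry, came from the flu1-1 mutant of Landsberg erecta after 5 backcrosses to Columbia, and the ex1 and ex2 alleles were T-DNA insertions in EX1 and EX2. Until they began to bolt, plants were grown without a night at 100 µmol m-2 s-1. A dark period of 8 h followed, and leaves were taken 30 min after the light came back on. No sample taken before the light was analysed here, so each value is a level at that single time.

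TIR domains are found in many plant immune receptors and in shorter proteins that lack the nucleotide-binding or leucine-rich repeat parts of a receptor. In plants, many of these domains are enzymes that cleave NAD+, and their products act through EDS1 and its partners PAD4 and SAG101. The flu mutant accumulates protochlorophyllide in the dark, which releases singlet oxygen in the plastid upon light, and the plastid proteins EXECUTER1 and EXECUTER2 are needed for much of the nuclear response. EX2 also lies on chromosome 1, but on the other arm.

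The arrays had been scaled to a common level, with a median signal of 158 to 171, and replicate arrays correlated at 0.973 to 0.985 over the probe sets tested. The EX1 probe set read 185 and 225 in ex1/ex2/flu, 248 and 236 in ex1/flu, 631 and 561 in ex2/flu, 772 and 771 in flu and 606 and 772 in wild type. It was therefore lower on all 4 arrays of the lines with the ex1 insertion than on the other 6. FLU and EX2 had no probe set assigned to them, and the labels of these alleles were not checked. The leaf genes RCA and LHCB4.2 had signals of 15260 to 21041 and of 6848 to 17011, whereas the 3 root markers with a probe set (EXPA7, EXPA18 and CEP5) lay between 1.47 and 53.3. LHCB4.2 differed between genotypes, by -1.02 in flu against wild type (limma adjusted p = 4.51e-05) and by 1.04 in ex2/flu against flu (limma adjusted p = 0.00056). Against wild type LHCB4.2 also differed by -1.16 in ex1/flu (limma adjusted p = 3.82e-05) and by -1.07 in ex1/ex2/flu (limma adjusted p = 0.000122). In ex2/flu it differed from wild type by 0.02 (limma adjusted p = 0.954). The cause was not tested. RCA was not called in flu against wild type (limma adjusted p = 0.513) or in ex2/flu against flu (limma adjusted p = 0.423). The 9 inflorescence markers had no assigned probe set, so stem or flower tissue in the bolting plants was not checked. By the mean log2 signal of spike-in RNA controls, the arrays were divided into 4 of low level (6.43 to 6.805) and 6 of high level (7.05 to 7.58). The low ones were 1 array each of ex1/flu, ex2/flu, flu and wild type. The step from 6.805 to 7.05 at the division was similar to that from 6.59 to 6.805 inside the low level. The levels are therefore parts of a range and are not read as separate batches.

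AT1G72920 was brightest in ex2/flu and flu, intermediate in ex1/flu, low in ex1/ex2/flu and lowest in wild type. Its signal, a linear intensity, was 383 and 340 in ex1/ex2/flu, 724 and 652 in ex1/flu, 2063 and 1762 in ex2/flu, 1570 and 1529 in flu, and 234 and 181 in wild type. The arrays of each genotype lay apart from those of every other, so no pair of genotypes overlapped. Both members were above the 40th percentile of the array, the level used to set dim probe sets aside, on all 10 arrays.

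AT1G72940 was the brighter probe set on each of the 10 arrays, although levels of different probe sets are not comparable as amounts of RNA. Its signal was 733 and 746 in ex1/ex2/flu, 1416 and 1019 in ex1/flu, 3142 and 2845 in ex2/flu, 2228 and 2506 in flu, and 387 and 478 in wild type. The order of the genotypes was that of AT1G72920, again with no overlap between any pair of genotypes. The 2 arrays of ex1/flu stood farthest apart, by 0.47 on the log2 scale. Probe sequences were not used here, so signal from near-identical neighbouring TIR genes cannot be told apart from that of the pair.

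**Figure D1:**
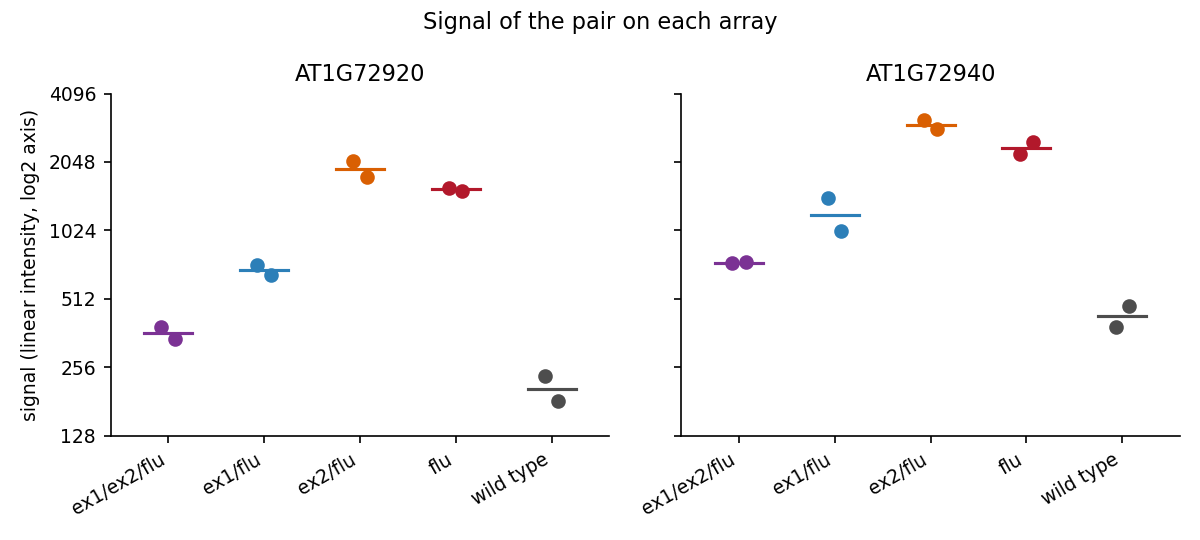
Signal of AT1G72920 and AT1G72940 on each array (points) by genotype, on a log axis, with the mean log2 signal as a line. In both panels ex2/flu and flu are highest, ex1/flu is between, and ex1/ex2/flu lies above wild type with no overlapping arrays.

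In flu against wild type, the comparison in which the genes were chosen, AT1G72920 differed by 2.91 ± 0.17 (log2 difference ± limma standard error, 2 arrays each) and AT1G72940 by 2.46 ± 0.18. They ranked 23rd and 38th highest of the 14435 probe sets tested. These are descriptions with no test, and 2.83% of all probe sets tested were called higher and 1.02% lower in this comparison at a limma adjusted p under 0.05. In whole leaves, more RNA per cell cannot be told apart from more cells of a type that expresses a gene.

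Loss of both EXECUTER proteins went with low levels of the pair. In ex1/ex2/flu against flu, AT1G72920 fell by 2.10 ± 0.17 on the log2 scale (limma adjusted p = 4.02e-06) and AT1G72940 fell by 1.68 ± 0.18 (limma adjusted p = 3.69e-05). Both were among the 2.51% of probe sets called lower, against 0.485% called higher. All comparisons with flu share its 2 arrays with the comparison that chose the genes, and those with wild type share the wild type arrays. Comparisons among the 3 EXECUTER lines use neither.

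Both genes were also lower where EX1 alone was lost. In ex1/flu against flu the difference was -1.17 ± 0.17 for AT1G72920 (limma adjusted p = 0.00174) and -0.98 ± 0.18 for AT1G72940 (limma adjusted p = 0.00887), where 1.14% of all probe sets were called lower. The call of AT1G72940 was lost without array 2 of ex1/flu (-0.74, limma adjusted p = 0.0554), without array 1 of flu (limma adjusted p = 0.0512) and without array 2 of flu (limma adjusted p = 0.131). It was also lost without the intensity trend in limma (limma adjusted p = 0.0542).

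Loss of EX2 alone gave no call for either gene. In ex2/flu against flu, AT1G72920 differed by 0.30 on the log2 scale (95% interval of -0.06 to 0.66, limma adjusted p = 0.466) and AT1G72940 by 0.34 (-0.04 to 0.71, limma adjusted p = 0.414). In this comparison 1.04% of probe sets were called in either direction. The arrays of ex2/flu lay above those of flu for both genes, but the intervals include 0, so the order of these 2 genotypes is not settled by the test.

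The lines with 1 EXECUTER protein differed from each other. In ex1/flu against ex2/flu, AT1G72920 differed by -1.47 ± 0.17 (limma adjusted p = 0.000113) and AT1G72940 by -1.32 ± 0.18 (limma adjusted p = 0.000394). These estimates use no array of the comparison that chose the genes, but the standard errors and p do, through the shared variance. Of all probe sets, 1.83% were called lower there. The differences in ex1/ex2/flu against ex2/flu were -2.40 ± 0.17 (limma adjusted p = 4.98e-07) for AT1G72920 and -2.02 ± 0.18 (limma adjusted p = 3.69e-06) for AT1G72940, with 2.47% of probe sets called lower. None of these 4 calls was lost under the 17 alternatives run for each.

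The further step between ex1/flu and ex1/ex2/flu was not called. AT1G72920 differed by -0.93 in ex1/ex2/flu against ex1/flu (95% interval of -1.29 to -0.57, limma adjusted p = 0.0724), and AT1G72940 by -0.70 (-1.08 to -0.33, limma adjusted p = 0.341). Only 5 probe sets, or 0.0346% of those tested, were called lower in this comparison. Each interval covers its single gene without adjustment for the number of probe sets, and both lie below 0. The ex1/ex2/flu arrays were below those of ex1/flu for both genes.

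The interaction of the insertions, taken as the ex1/ex2/flu minus ex1/flu difference less the ex2/flu minus flu difference, was -1.23 ± 0.24 for AT1G72920 (limma adjusted p = 0.0546) and -1.04 ± 0.25 for AT1G72940 (limma adjusted p = 0.107). Neither was called, and 0.201% of probe sets were called in either direction. The p of AT1G72920 lay under 0.05 with quantile normalization, with an offset of 50, with the replicate number as a block, with the spike-in level as a block and without array 2 of ex1/flu. That of AT1G72940 did so with the spike-in level as a block and without array 2 of ex1/flu.

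Both genes remained above wild type in each line that carries flu. In ex1/flu against wild type AT1G72920 was 1.74 ± 0.17 higher (limma adjusted p = 3.16e-05) and AT1G72940 1.48 ± 0.18 higher (limma adjusted p = 0.00019), with 0.72% of probe sets called higher. In ex2/flu against wild type the values were 3.21 ± 0.17 (limma adjusted p = 7.28e-09) and 2.80 ± 0.18 (limma adjusted p = 4.11e-08), with 2.75% called higher. The smallest of these differences were in ex1/ex2/flu, where AT1G72920 was 0.81 ± 0.17 higher (limma adjusted p = 0.0279) and AT1G72940 0.78 ± 0.18 higher (limma adjusted p = 0.0418), while 0.388% of probe sets were called higher. The call of AT1G72920 in ex1/ex2/flu against wild type was lost without array 1 or 2 of ex1/ex2/flu, without array 2 of wild type and without the intensity trend. That of AT1G72940 was lost without either array of ex1/ex2/flu, flu or wild type, without the filter on dim probe sets, without the trend and with either block.

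**Figure D2:**
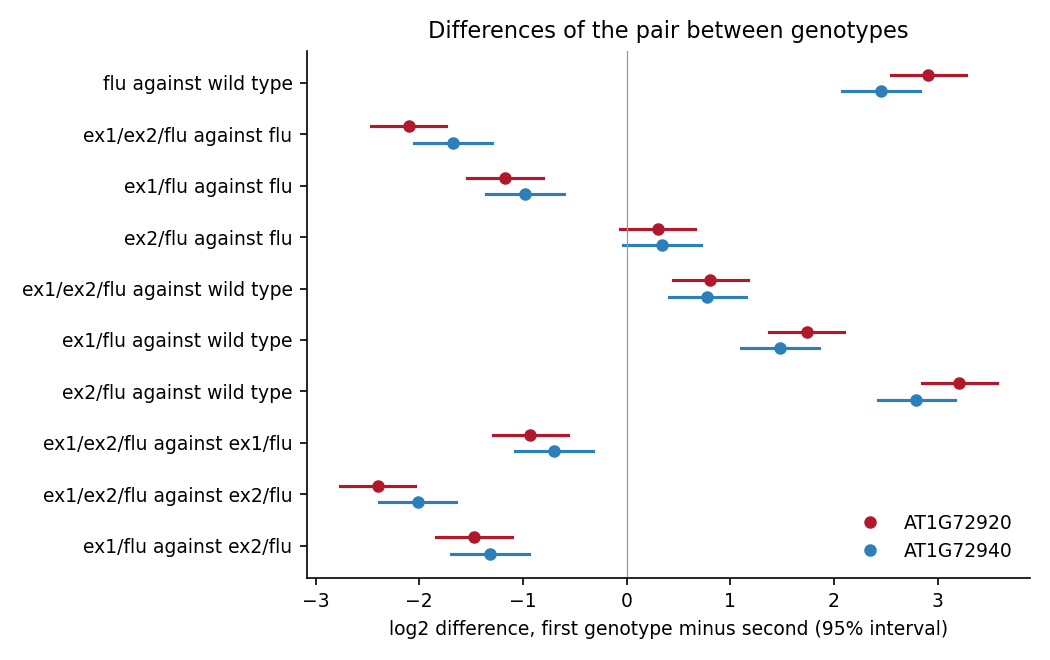
Log2 differences of AT1G72920 and AT1G72940 in each comparison (points) with 95% intervals from limma (bars). Every comparison of a flu-carrying line with wild type is above 0, and ex2/flu against flu lies closest to 0 for both genes.

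On the linear scale, the flu minus wild type signal difference was set to 100% and the excess over wild type in each line was read against it. For AT1G72920 the 2 arrays of ex1/ex2/flu kept 13.1% and 9.83% of it, those of ex1/flu 38.5% and 33.1%, and those of ex2/flu 138% and 116%. For AT1G72940 the figures were 15.5% and 16.2% in ex1/ex2/flu, 50.9% and 30.3% in ex1/flu, and 140% and 125% in ex2/flu. The 100% is the difference by which the genes were chosen, so selection may have made it too wide. These shares also depend on the scale. On the log2 scale, the genotype means of AT1G72920 kept 27.8% in ex1/ex2/flu, 59.7% in ex1/flu and 110.3% in ex2/flu, and those of AT1G72940 kept 31.8%, 60.3% and 114% in the same lines. On both scales ex1/ex2/flu kept less than ex1/flu.

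Within each spike-in control level, every difference of the pair that could be formed had the sign of the whole fit. This was fixed beforehand, since no pair of genotypes overlapped for either gene, and only the sizes could vary. The signs are therefore no test of the control level. At the low and the high level, ex1/flu minus flu was -1.23 and -1.12 for AT1G72920, and -1.30 and -0.65 for AT1G72940, from 1 array of each genotype at each level. ex1/ex2/flu had arrays at the high level only, where its difference from flu was -2.12 for AT1G72920 and -1.59 for AT1G72940.

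The ratio of the pair within an array is free of array-wide scaling. The log2 of AT1G72920 over AT1G72940 was -0.94 and -1.13 in ex1/ex2/flu, -0.97 and -0.64 in ex1/flu, -0.61 and -0.69 in ex2/flu, -0.51 and -0.71 in flu, and -0.72 and -1.40 in wild type. The values of wild type spanned the widest range and overlapped those of ex1/ex2/flu and ex1/flu. Genotype accounted for 52.2% of the variance of the ratio (exact permutation test of F, one-sided, 945 arrangements, p = 0.3556, where the smallest p possible is 0.001058). Without array 1 of wild type that share was 85.4% (exact permutation p = 0.05503). An unequal change of the pair was not detectable with these arrays.

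**Figure D3:**
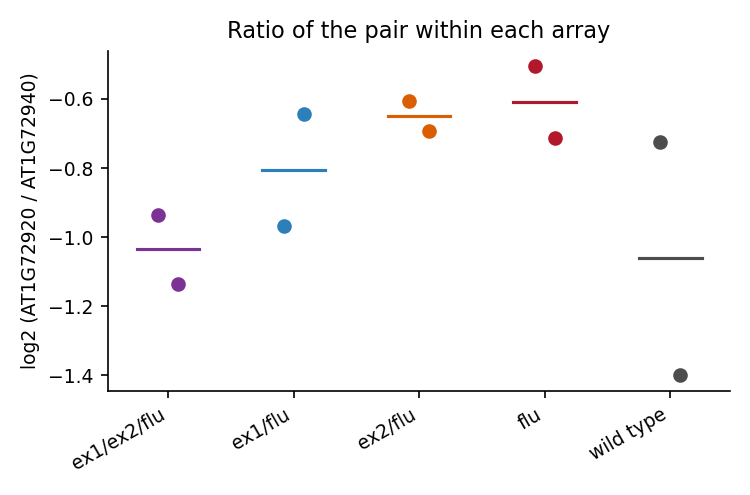
Log2 ratio of AT1G72920 to AT1G72940 within each array (points) by genotype, with genotype means as lines. The 2 wild type arrays, at -0.72 and -1.40, span most of the range of the 10 arrays.

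The pair stands in a row of TIR-type genes. Among the 27 protein-coding loci from AT1G72800 to AT1G73060, 17 had a probe set and 11 passed the filter, among them the pair. Of these loci 11 were of the TIR type, 9 had a probe set and 5 passed the filter. AT1G72840, AT1G72850, AT1G72860 and AT1G72870 lay below the filter level on all 10 arrays, so their levels are not ordered here, and AT1G72910 and TIR were not analysed here.

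AT1G72900, 2 loci before AT1G72920 in the row, had a similar profile. Its signal was 554 and 471 in ex1/ex2/flu, 773 and 674 in ex1/flu, 1837 and 1669 in ex2/flu, 1375 and 1762 in flu, and 448 and 408 in wild type. Its ex2/flu and flu arrays overlapped, while ex1/flu lay between these and wild type. In flu against wild type it was 1.86 ± 0.17 higher (limma adjusted p = 4.23e-06). It fell by 1.61 in ex1/ex2/flu against flu (limma adjusted p = 3.8e-05), and in ex1/flu against flu by 1.11 (limma adjusted p = 0.00262). The ex1/flu call was lost without array 2 of flu (limma adjusted p = 0.077).

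AT1G72900 differed from the pair in ex1/ex2/flu against wild type, where it was not called (0.26, limma adjusted p = 0.71), but the difference between the genes was not tested. It fell by 1.78 in ex1/ex2/flu against ex2/flu (limma adjusted p = 8.16e-06), and in ex1/flu against ex2/flu by 1.28 (limma adjusted p = 0.000377). Its call in ex1/flu against wild type (0.76, limma adjusted p = 0.0361) was lost under 5 of the 17 alternatives. These were leaving out array 1 of ex1/flu or either array of wild type, the fit without the intensity trend and the fit of the compared arrays only. Its share of the flu minus wild type signal difference averaged 7.39% in ex1/ex2/flu and 25.9% in ex1/flu.

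AT1G72950, next after AT1G72940, was dim. Its signal was 47.4 and 47.0 in ex1/ex2/flu, 44.9 and 57.7 in ex1/flu, 127 and 124 in ex2/flu, 102 and 129 in flu, and 39.7 and 23.7 in wild type. Only the ex2/flu and flu arrays reached the filter level of 85.5 to 92.6, so it passed the filter through these alone and had to differ. As a description with no test, flu was at least 1.27-fold and ex2/flu at least 1.38-fold above wild type, read against that level.

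The TIR-type gene AT1G72890, on the other side of AT1G72900, had a different profile. It was above the filter level on all 10 arrays, with a difference of -0.20 in flu against wild type (limma adjusted p = 0.723) and of -0.60 in ex1/ex2/flu against flu (limma adjusted p = 0.155). Of the 9 neighbours that passed the filter, AT1G72950 did so only through its high genotypes and is not read as a call. Of the others, AT1G72900 alone was called in flu against wild type, where 2.83% of all probe sets were called higher, and alone in ex1/ex2/flu against flu, where 2.51% were called lower. The 5 loci outside the TIR genes that lay above the filter level in the genotypes compared (AT1G72800, AT1G72810, AT1G72820, AT1G73020 and VPS46.2) had flu minus wild type differences of -0.56 to 0.51, and limma called none of them. AT1G73040 lay below the filter level in flu, ex1/flu and ex2/flu.

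**Figure D4:**
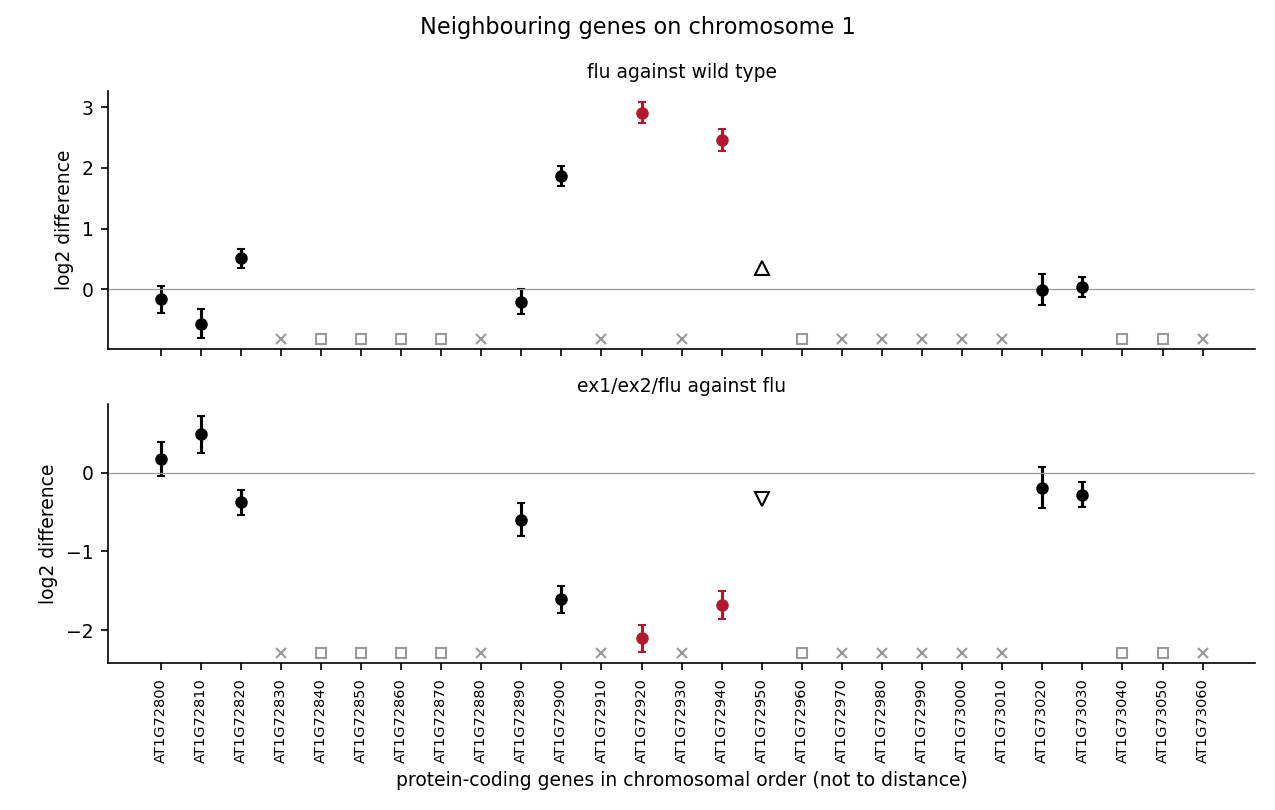
Log2 differences (points, bars are limma standard errors) of the loci from AT1G72800 to AT1G73060 in chromosomal order, with the pair in red. Triangles are bounds, squares are loci below the filter level on both arrays of a genotype compared, and crosses are loci without an assigned probe set. Of the loci drawn as points, AT1G72900, AT1G72920 and AT1G72940 have the widest differences in both panels, and the bound of AT1G72950 cannot be ranked among them.

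TIR-type genes elsewhere were taken from a list of 26 loci, mostly receptors, of which 9 had a probe set and 5 passed the filter. Of these 5, 2 were called higher in flu than in wild type and none lower, where 2.83% of all probe sets were called higher (median 0.34 against -0.04 over all probe sets). In the comparison of ex1/ex2/flu with flu, 2 were called lower and none higher, where 2.51% of all were called lower (median -0.76 against 0.04). The genes called in both comparisons were TN3 and TN13, which encode TIR proteins with a nucleotide-binding part and no leucine-rich repeats. SOC3 passed the filter through flu and wild type alone. CSA1, SOC3 and DSC1, full receptors with repeats, differed by 0.15, 0.34 and -0.10 in flu against wild type (limma adjusted p = 0.774, 0.666 and 0.904).

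TN3 had the wider differences of these 2. Its signal was 583 and 456 in ex1/ex2/flu, 618 and 656 in ex1/flu, 2224 and 2500 in ex2/flu, 1467 and 1723 in flu, and 457 and 393 in wild type. The arrays of ex1/ex2/flu overlapped those of wild type, and those of ex2/flu lay above those of flu. It was 1.91 higher in flu against wild type (limma adjusted p = 3.31e-06), and fell by 1.62 in ex1/ex2/flu against flu (limma adjusted p = 3.52e-05) and by 1.32 in ex1/flu against flu (limma adjusted p = 0.000828).

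TN13 changed less. It was 0.65 higher in flu than in wild type (limma adjusted p = 0.0458) and fell by 0.76 in ex1/ex2/flu against flu (limma adjusted p = 0.0234). The flu against wild type call was lost under 8 of the 17 alternatives, among them leaving out either array of ex1/ex2/flu, flu or wild type. The ex1/ex2/flu against flu call was lost under 4, which were leaving out array 2 of ex1/ex2/flu or either array of flu, and the fit without the intensity trend.

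**Figure D5:**
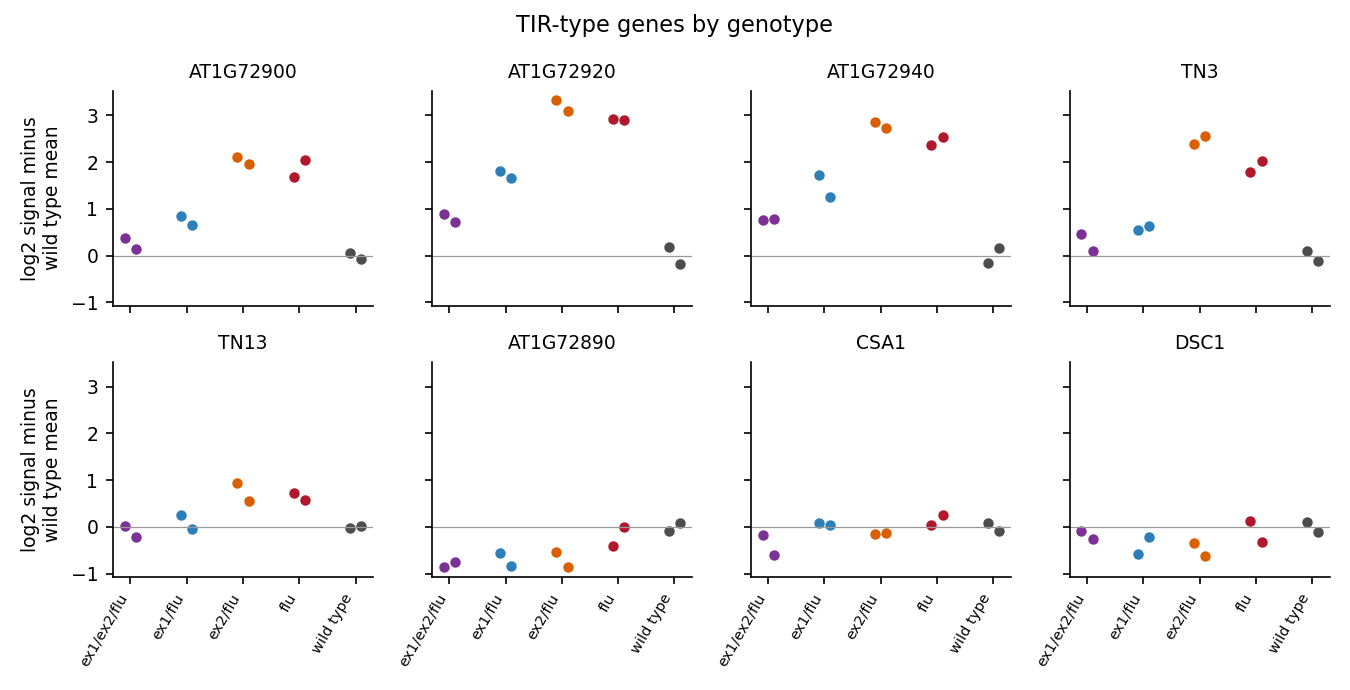
Log2 signal minus the wild type mean of 8 TIR-type genes on each array (points) by genotype. AT1G72900, AT1G72920, AT1G72940 and TN3 are high in ex2/flu and flu, TN13 less so, and AT1G72890, CSA1 and DSC1 stay within about a log2 unit of wild type.

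Few genes through which TIR proteins are known to signal could be read. Of 19 listed loci, 4 had a probe set and all 4 passed the filter. By limma none was called in flu against wild type (median -0.25 against -0.04 over all probe sets) or in ex1/ex2/flu against flu (median -0.21 against 0.04). NRG1.3, which is in both medians, passed the filter through wild type alone, so it had to be lower in flu. Its values in the other genotypes are dim and are not read. EDS1B, a copy of the lipase-like protein EDS1, read 237 and 141 in ex1/ex2/flu, 247 and 225 in ex1/flu, 143 and 134 in ex2/flu, 286 and 238 in flu and 296 and 350 in wild type. It was -1.22 in ex2/flu against wild type (limma adjusted p = 0.00406, lost without array 2 of wild type) and -0.30 in flu against wild type (limma adjusted p = 0.599). The other of the brightest, SGT1A, a co-chaperone of immune receptors, differed by 0.33 in flu against wild type (limma adjusted p = 0.344). None of the 17 listed loci of salicylate synthesis and response had an assigned probe set, and the only coiled-coil receptor gene of 14 with one did not pass the filter.

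Genes of early pattern-triggered immunity were called in the direction of the pair. Of 21 listed loci, 7 had a probe set and 6 passed the filter, 5 of which were called higher in flu than in wild type and none lower, where 2.83% of all probe sets were called higher (median 0.91 against -0.04 over all probe sets). Lower calls in ex1/ex2/flu against flu numbered 4, with none higher, where 2.51% of all were called lower (median -1.05 against 0.04). The uncalled gene in flu against wild type, PUB22, passed the filter through ex2/flu and flu alone. It therefore had to differ in both comparisons, and its values are in both medians. WRKY53, a transcription factor of senescence and defence, was 1.70 higher in flu against wild type (limma adjusted p = 3.5e-05) and fell by 1.69 in ex1/ex2/flu against flu (limma adjusted p = 5.98e-05). PUB23 and PUB24, U-box ubiquitin ligases that dampen pattern-triggered responses, were 1.22 and 0.83 higher in flu against wild type (limma adjusted p = 0.00488 and 0.00889).

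PUB23 fell by 1.14 in ex1/ex2/flu against flu (limma adjusted p = 0.0105) and PUB24 fell by 0.97 (limma adjusted p = 0.00379). Both calls of each ligase were lost without array 2 of flu. Those in ex1/ex2/flu against flu were also lost without array 2 of ex1/ex2/flu. The flu against wild type call was lost without array 2 of wild type for PUB23 and without either wild type array for PUB24. WRKY22, a transcription factor downstream of flagellin perception, was 1.00 higher in flu against wild type (limma adjusted p = 0.0221, lost without the filter and without either array of flu or of wild type). It lay below the filter level in ex1/ex2/flu, at least 1.04 log2 units under flu, a bound that was not tested. The fitted difference, which uses the dim values, was -1.34 (limma adjusted p = 0.00364, lost without array 2 of ex1/ex2/flu or of flu). BIK1, a receptor-like cytoplasmic kinase, was 0.78 higher in flu against wild type (limma adjusted p = 0.0276, lost without either array of flu or of wild type and without the intensity trend), and it was not called in ex1/ex2/flu against flu (-0.56, limma adjusted p = 0.138). Against these, the pair differed by 2.91 and 2.46 in flu against wild type and by -2.10 and -1.68 in ex1/ex2/flu against flu, where WRKY53 lay between its 2 values. The difference between the pair and the list was not tested.

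The genes with the most similar profiles were ranked by Pearson correlation of log2 signal over the 10 arrays among 7785 other probe sets with 1 gene. These points share 5 genotypes and the genotype differences, so high values are frequent: 81 probe sets (1.04%) exceeded 0.9 with AT1G72920 and 70 (0.899%) with AT1G72940. The 5 nearest to AT1G72920 were AT4G26400, a RING-type protein (0.993), AT4G29780, a nuclease-like protein (0.993), STZ, a zinc-finger repressor (0.992), AT4G27280, an EF-hand protein (0.988), and AT5G52050, a MATE transporter (0.987). AT1G72940 was the 6th (0.986).

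The nearest to AT1G72940 were AT2G24600, an ankyrin-repeat protein (0.991), AT4G29780 (0.989), AT1G72920 itself (0.986), AT5G66650, a calcium uniporter protein (0.986), and AT1G76360, a protein kinase (0.984). AT4G29780 was the only gene among the 5 nearest of both, and AT1G72900 ranked 12th for AT1G72920 (0.978) and 16th for AT1G72940 (0.971). With Spearman correlation 3 of the 5 remained for AT1G72920 and 1 for AT1G72940, and over the 5 genotype means 2 and 1 remained. The membership of these short lists therefore depends on the measure. AT5G52050 lay below the filter level in ex1/ex2/flu and wild type, and AT5G66650 in wild type, so their correlations rest in part on dim values. Between the pair, the correlation over the 5 genotype means was 0.999.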

How the data were processed

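Total RNA of rosette leaves was labelled as biotinylated cRNA and hybridised to ATH1 arrays, per the labels. The deposited table holds the authors' linear signal intensity per probe set, made with MAS5 in GCOS 1.2 per the submitters' processing notes. For the scaling target and detection calls, the sources used here give nothing. The mean signal of all probe sets between percentiles 2 and 98, controls included, was 499.8 on every array. Samples were grouped by their titles. The labels call the replicates biological, each a pool of 5 plants.

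Of 22746 probe sets, without 64 controls, the 14435 (63.5%) that reached the 40th percentile of the array on at least 2 of 10 arrays were tested. The log2 signal, without offset, was fitted with limma 3.58.1 in R 4.3.3 (1 mean per genotype, intensity trend, 5 residual and 10 prior degrees of freedom). A call was an adjusted p (Benjamini-Hochberg) under 0.05. The fit was tested on simulated data. The number of arrays limits the precision. Where a genotype lay below the percentile on both arrays, a bound from the percentile was given.

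Gene names came from the array's given annotation, without a stated genome build: 13513 probe sets had 1 gene, 503 had several and 8730 were not listed. A single gene with a locus in the RefSeq table (TAIR10.1) was found for 7786 of those tested, and the table was used for names and gene order only. No sequence is shown, since none was used here.

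The genes, the lists and the naming rule were chosen with earlier results of these data known. The rule names the pair, the measured loci from AT1G72800 to AT1G73060, from each list at most 4 called genes (or the 2 brightest), and the 5 nearest profiles of each gene. CSA1, SOC3, DSC1, BIK1, PUB22 and NRG1.3 were named after their values were seen. Same-numbered arrays deviated together with a correlation of 0.43 between ex1/flu and ex2/flu, and of -0.09 to 0.09 between the other genotypes. The numbers were not taken as pairs in the fit reported. Alternatives were no filter, an offset of 50, quantile normalization, no trend, only the arrays compared, a replicate block, a spike-in block and each array left out. Figures used Python 3.11.15 and matplotlib 3.10.9.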

Additional observations from a re-analysis of the deposited data

How the results depend on the processing

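Across 17 alternatives, the 23 results of AT1G72920, AT1G72940 and their ratio gave 387 values. Of these, 362 kept their direction and side of the threshold, 18 lost a call, 7 gained one and none reversed. Several alternatives, such as leaving out an array of neither genotype compared, keep the estimate as it is, so it could not reverse there. Leaving out an array of a compared genotype could not reverse a difference between genotypes either, since no pair of genotypes overlapped for either gene. In the runs without an array, the lack of reversals is therefore no test of the direction of these differences. The variance share of the ratio has no direction, and only its side of the threshold was read. Without the intensity trend, ex1/ex2/flu against wild type was no longer called for AT1G72920 (0.81, limma adjusted p = 0.0778) or AT1G72940 (0.78, limma adjusted p = 0.124), nor was ex1/flu against flu for AT1G72940 (-0.98, limma adjusted p = 0.0542). For AT1G72940, ex1/ex2/flu against wild type was also lost without the filter (0.78, limma adjusted p = 0.0608), with the replicate block (0.78, limma adjusted p = 0.0514) and with the spike-in block (0.69, limma adjusted p = 0.0521). The interaction of AT1G72920 was called with quantile normalization (-1.27, limma adjusted p = 0.0386), with the offset (-1.13, limma adjusted p = 0.046), with the replicate block (-1.23, limma adjusted p = 0.0322) and with the spike-in block (-1.23, limma adjusted p = 0.0456), and that of AT1G72940 with the spike-in block (-1.13, limma adjusted p = 0.0483). The cause was not tested. The replicate block changed no other call of the pair. Leaving out arrays gave 0.62 to 0.99 for AT1G72920 and 0.63 to 0.93 for AT1G72940 in ex1/ex2/flu against wild type, -1.21 to -0.74 for AT1G72940 in ex1/flu against flu, and interactions of -1.34 to -1.11 for AT1G72920 and -1.28 to -0.80 for AT1G72940.

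Counts of probe sets called moved more than the pair's values, and the replicate block moved none of them by over 1.5 times. Over the alternatives, flu against wild type had 256 to 731 calls (555 in the fit reported), ex1/flu against flu 58 to 314 (197), ex2/flu against flu 8 to 303 (150) and ex1/ex2/flu against flu 129 to 664 (433). Against wild type, ex1/flu had 97 to 311 (228), ex2/flu 423 to 881 (688) and ex1/ex2/flu 53 to 276 (180). Among the EXECUTER lines, ex1/ex2/flu against ex1/flu had 0 to 17 (5), ex1/ex2/flu against ex2/flu 225 to 484 (393) and ex1/flu against ex2/flu 185 to 333 (278), and the interaction had 3 to 91 (29). The lowest counts came mostly from leaving out 1 array, where fewer samples are compared.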
